A study of Sus scrofa with 6 samples.

Results

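Mitochondrial ribosomal protein genes were taken as the rows of the deposited table whose Ensembl pig gene ID has a current symbol that starts with MRPL or MRPS followed by a digit. The rule gave 44 of 25322 genes, 30 named for the large subunit (MRPL) and 14 for the small subunit (MRPS). In all, 65 current pig symbols have that form, and the other 21 were not analysed here. RNA was measured in the longissimus dorsi muscle, which runs along the back, of 6 healthy female Tibetan pigs, with 1 library per animal. The 3 high altitude animals ranged freely in the Tibetan highland, where the altitude averages 4000 m. The 3 low altitude animals lived on the Chengdu plain, which averages 500 m, were fed daily under experimental conditions, and descended from Tibetan pigs bred in the lowland for several generations. All 6 animals belonged to the same breed and no age is given. Altitude, husbandry, place and the recent history of the line differed together between the groups and cannot be told apart.

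The mitochondrial ribosome sits in the mitochondrial matrix and translates the respiratory chain subunits that the mitochondrial genome encodes. Its RNAs come from the mitochondrial genome, whereas its proteins are encoded in the nucleus, made in the cytosol and imported. The small subunit decodes the messenger RNA, and the large subunit joins the amino acids and passes the new protein toward the inner membrane. Some of the proteins have bacterial counterparts and others are found only in mitochondrial ribosomes. Skeletal muscle uses this ribosome to maintain its oxidative capacity.

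Values are FPKM, fragment numbers scaled to the length of the gene and the mapped total of the library, so levels can be compared between genes. The sampled tissue had high levels of muscle fibre genes. MYL1, a myosin light chain of fast fibres, was at an FPKM of 10100 to 11850, and 6 of 6 fibre markers in the table passed the filter described below. The FPKM total was 506611 to 571855 per library. FPKM holds no read counts, so absolute depth is unknown, and the steps between low values put the relative depth of the libraries at 0.856 to 1.22, with a geometric mean of 1. High altitude library 1 stood apart. It was the lowest of the 6 libraries in 43.0% of all tested genes, had the highest mean log2(FPKM + 1) of the 4 tested slow fibre markers (11.17; the other libraries had 9.40 to 10.69) and the lowest of the 9 fibroblast and matrix markers (3.78; the other libraries had 4.96 to 5.64). Several estimates and list medians are also given without it.

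The genes of the mitochondrial ribosome were expressed at moderate levels, and 43 of the 44 passed the filter for testing, an FPKM of 1 or more in 3 or more libraries. Among the tested genes of all kinds, their mean levels lay between the 36.0th and the 92.4th percentile, with a median percentile of 77.5. Their mean FPKM over the 6 libraries ran from 3.13 to 49.6, a 15.8-fold range, and 28 of 43 were at 10 or more. The median of the gene means was 14.7 for the 29 large subunit genes and 13.7 for the 14 small subunit genes.

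In the large subunit the highest levels belonged to MRPL28, MRPL30, MRPL24 and MRPL18, all of them proteins with bacterial counterparts. MRPL28 had FPKM values of 59.7, 42.4 and 46.6 at high and 41.6, 61.0 and 46.1 at low altitude. The values of MRPL30 were 55.7, 47.0 and 45.8 at high and 50.9, 48.4 and 40.8 at low altitude. In both genes the groups overlapped, with the highest value in 1 library of either group. MRPL24, the counterpart of a bacterial protein near the exit of the peptide tunnel, was at 40.3, 28.0 and 46.3 at high and 31.1, 38.4 and 35.9 at low altitude. MRPL18 was at 21.2, 32.0 and 36.8 at high and 38.7, 35.4 and 32.3 at low altitude, and its lowest value was that of high altitude library 1. At the other end, MRPL19 had a mean of 3.13, MRPL47 5.13 and MRPL35 5.31.

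In the small subunit the highest levels belonged to MRPS33, MRPS24, MRPS26 and MRPS6. MRPS33, which has no bacterial counterpart, was at 30.8, 36.2 and 24.9 at high and 33.6, 39.1 and 41.7 at low altitude, where the groups overlapped. MRPS24, the counterpart of bacterial S3, was at 29.95, 29.5 and 26.8 at high and 29.1, 36.6 and 32.5 at low altitude, and MRPS26, specific to mitochondria, at 30.2, 26.8 and 33.0 and at 32.7, 32.7 and 27.5. Neither separated the groups. The lowest means were 3.37 for MRPS31, 5.60 for MRPS2 and 6.09 for MRPS18B.

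**Figure D1:**
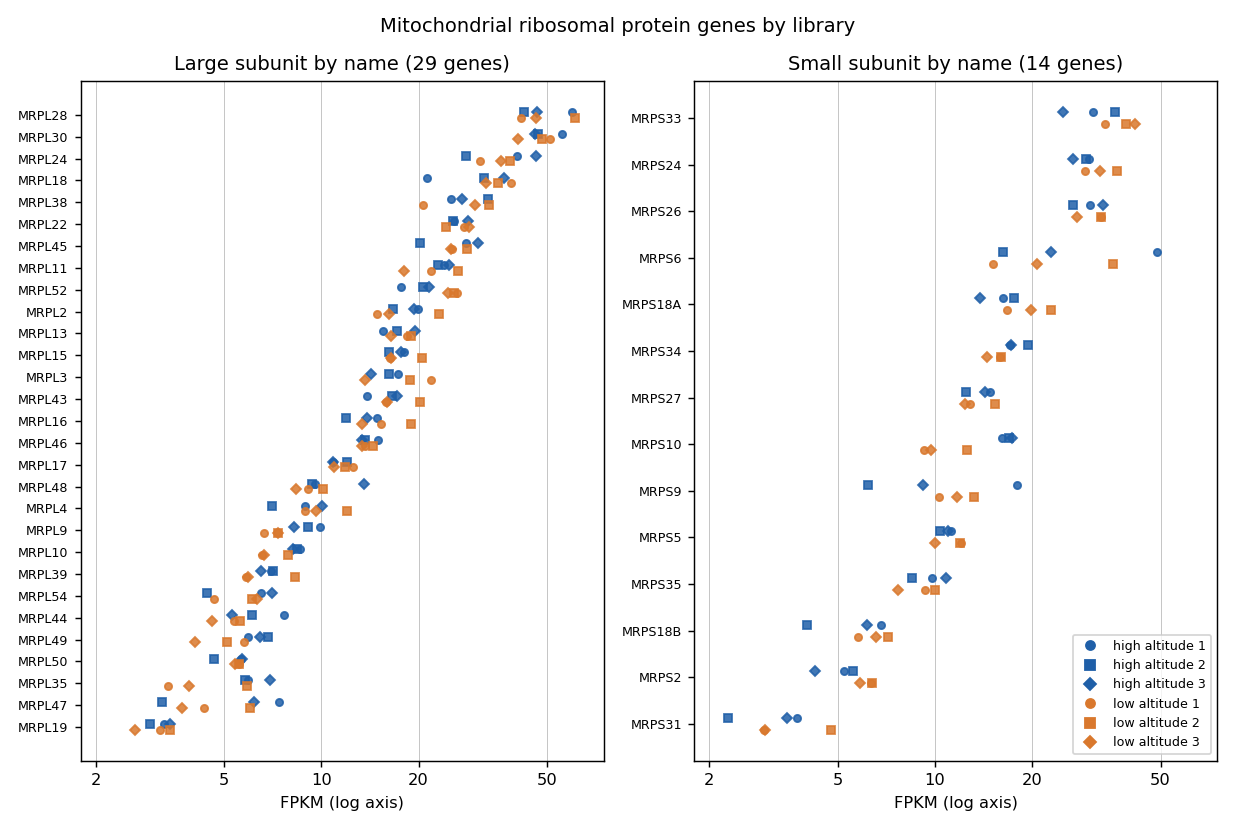
FPKM on a log axis of the 43 tested genes in each of the 6 libraries, in order of their mean, with 29 large subunit genes on the left and 14 small subunit genes on the right. Blue marks the 3 high altitude and orange the 3 low altitude libraries; the groups overlap in most rows, MRPS10 is separated (16.1 to 17.3 against 9.27 to 12.5), and MRPS6 and MRPS9 spread most.

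MRPL55, the counterpart of a bacterial large subunit protein, was the 1 gene that did not pass the filter. It was listed at 0 in 1 library of each group, high altitude 2 and low altitude 1, and at 0.0502 to 0.0697 in the other 4. Over the whole table, 107 genes are at 0 in some library although they reach an FPKM of 5 elsewhere, and none of the 43 tested genes of the mitochondrial ribosome was among them.

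The comparison of low with high altitude asks how gene expression in muscle differs when Tibetan pigs live in the lowland. For the mitochondrial ribosome, 0 of 43 tested genes passed the threshold, 0 of 29 in the large and 0 of 14 in the small subunit, in limma with Benjamini-Hochberg adjustment over 10005 genes and a threshold of 0.05. Over all tested genes 0.230% passed. At an unadjusted p under 0.05 by limma there were 3 of the 43 genes, 6.98%, against 9.42% of all tested genes. The count was 1 when high altitude library 2 or low altitude library 3 was left out, beside 781 and 613 of 10005 tested genes. It was also 1 with the replicate block and after rescaling to a common total, beside 874 and 899. With array weights or quantile normalization it was 5, beside 1347 and 1066. The fit to all libraries had 942 among all tested genes. In the fit to all libraries the 3 were MRPS10 and MRPL9, which had estimates below 0, and MRPL52, with an estimate above 0. The smallest adjusted p among the 43 genes was 0.273, that of MRPS10. Estimates are log2 fold changes as low minus high altitude on the log2(FPKM + 1) scale, where changes of low genes appear smaller than they are. In bulk tissue fewer cells of a type and less RNA per cell cannot be told apart.

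The estimates were small and lay on both sides of 0. Of the 43, 21 were above and 22 below 0, and their median was −0.0044, beside 0.041 over all tested genes, of which 42.3% were below 0. In the large subunit 12 estimates were above and 17 below 0, with a median of −0.048 and a range of −0.45 to 0.35. The large subunit median was 0.018 with 16 above 0 without low altitude library 1. It was −0.11 with 10 above 0 without low altitude library 2, so its sign depends on single libraries. In the small subunit 9 were above and 5 below 0, with a median of 0.089 and a range of −0.64 to 0.32. The small subunit median was 0.21 without high altitude library 1 and −0.035 without high altitude library 2, so its sign rests on single libraries. Over all 43 genes the sign of the median and the count above 0 also moved with single libraries: 0.032 with 26 above 0 without high altitude library 1, −0.038 with 14 without high altitude library 2, and −0.070 with 18 without low altitude library 2. The median log2 level of a subunit in each library is another measure than the median estimate, and it leaned the other way in both subunits. For the large subunit it was 3.99, 3.87 and 3.89 at high and 3.99, 4.31 and 3.85 at low altitude. For the small subunit it was 4.10, 3.93 and 3.91 at high and 3.75, 3.93 and 3.70 at low altitude. The groups overlapped in both. Libraries within a group differed in it by a pooled SD of 0.17 for the large and 0.11 for the small subunit. Estimates lay within 0.1 of 0 for 19 of the 43 genes and beyond 0.3 for 7.

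With 3 animals per group the precision was limited. The 95% intervals of the log2 fold changes were not adjusted for the number of genes. They lay wholly within a 2-fold change of FPKM + 1, in either direction, for 42 of the 43 genes, MRPS6 being the exception. For 23 genes they lay within a 1.5-fold change of FPKM + 1. Changes of FPKM itself are larger than those of FPKM + 1, and the interval of MRPS10 reached −0.996, close to the 2-fold bound. The median width of the intervals was 0.75 log2 units, from 0.60 in the narrowest to 2.08 in the widest.

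**Figure D2:**
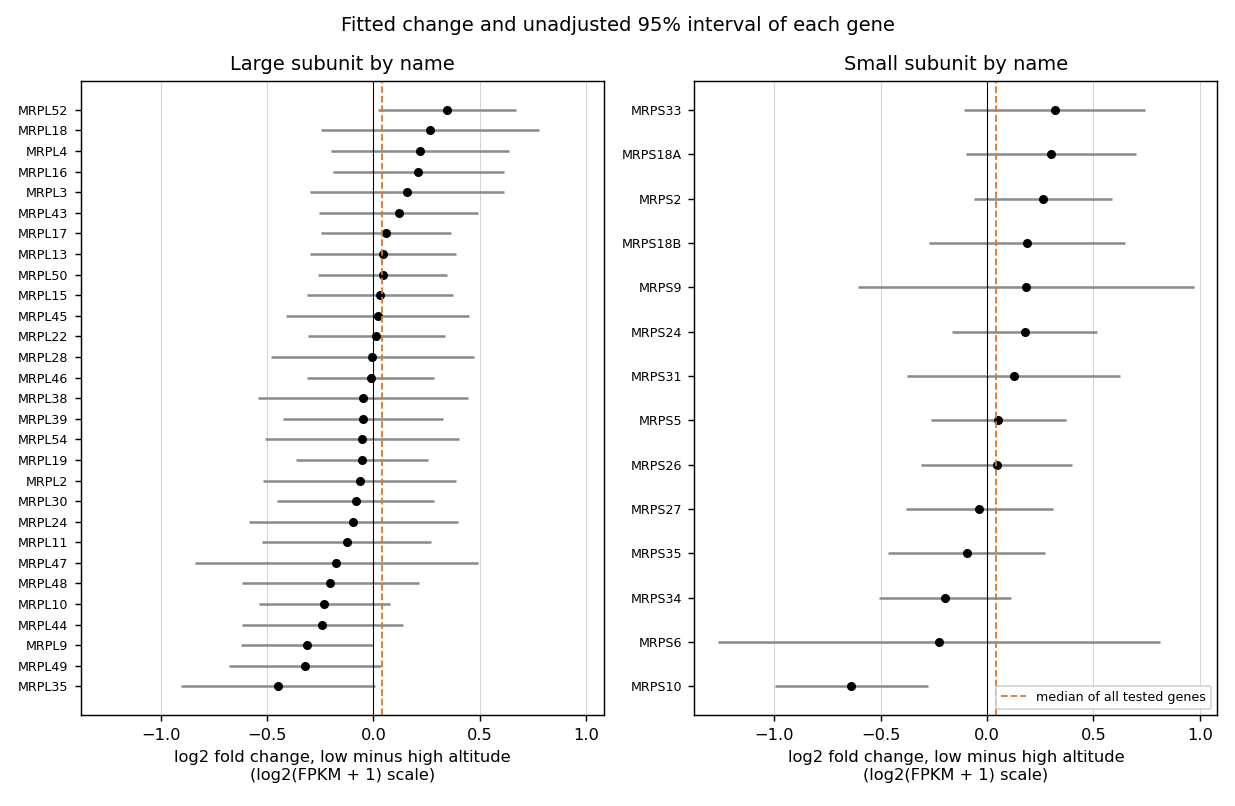
Fitted log2 fold change (points; low minus high altitude, log2(FPKM + 1) scale) and unadjusted 95% interval (grey lines) of the 29 large subunit genes on the left and the 14 small subunit genes on the right, with the median of all tested genes, 0.041, as a dashed line. Most intervals span 0; that of MRPS10 runs from −0.996 to −0.279.

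In 7 of the 43 genes, 16.3%, the groups did not overlap, close to the 16.1% of all tested genes. Low altitude was the lower group in 5 of the 7 (11.6% of the 43 genes, against 4.80% of all tested genes) and the higher group in 2 (4.65% against 11.3%). The difference between these shares was not tested.

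MRPS10 had the largest separation. It encodes the counterpart of bacterial S10, a protein of the head of the small subunit. Its FPKM was 16.1, 17.0 and 17.3 in the high and 9.27, 12.5 and 9.75 in the low altitude libraries. All 3 low altitude values lay below all 3 high altitude values, and the lowest high altitude library exceeded the highest low altitude library. The means were 16.8 ± 0.625 (SD, n = 3) and 10.5 ± 1.77, a ratio of 0.626, low over high. The fitted log2 fold change was −0.64 (SE 0.15, 95% interval −0.996 to −0.279), with an adjusted p of 0.273 (limma with Benjamini-Hochberg adjustment), so the difference did not pass the threshold over all genes. Leaving out each library in turn gave −0.76 to −0.56.

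Among large subunit genes, MRPL9, MRPL10 and MRPL49 were lower in every low altitude library. MRPL9, a protein with a bacterial counterpart, was at 9.93, 9.07 and 8.24 at high and 6.64, 7.34 and 7.36 at low altitude (log2 fold change −0.31, SE 0.13, limma with Benjamini-Hochberg adjusted p = 0.525). MRPL10, which forms the base of the stalk that recruits translation factors, was at 8.62, 8.44 and 8.15 at high and 6.56, 7.90 and 6.64 at low altitude (−0.23, limma, Benjamini-Hochberg adjusted p = 0.633). MRPL49, which has no bacterial counterpart, was at 5.94, 6.85 and 6.45 at high and 5.75, 5.09 and 4.05 at low altitude (−0.32, limma, Benjamini-Hochberg adjusted p = 0.570). The gap between the groups was narrow in MRPL10 and MRPL49, where the closest libraries were at 8.15 and 7.90 and at 5.94 and 5.75. MRPL11, which sits beside MRPL10 at the stalk, was at 24.0, 23.0 and 24.9 at high and 21.9, 26.5 and 18.04 at low altitude, and the groups overlapped.

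MRPL35, the counterpart of a bacterial protein, had the most negative estimate of the large subunit, but its groups overlapped. It was at 5.94, 5.80 and 6.94 at high and 3.36, 5.89 and 3.90 at low altitude (−0.45, SE 0.19, limma with Benjamini-Hochberg adjusted p = 0.538). Low altitude library 2 lay among the high altitude values, and the other low altitude libraries lay below them. MRPL44, which has an RNase III-type fold, was at 7.64, 6.10 and 5.30 at high and 5.38, 5.59 and 4.58 at low altitude, with overlapping groups (−0.24, limma, Benjamini-Hochberg adjusted p = 0.693; −0.12 without high altitude library 1). On the other side of 0, MRPL18, MRPL4, MRPL16 and MRPL3, all with bacterial counterparts, had estimates of 0.27, 0.22, 0.21 and 0.16, and the groups overlapped in all 4. The estimate of MRPL18 was 0.043 without high altitude library 1, its lowest library.

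MRPS34, a small subunit protein without a bacterial counterpart, was at 17.1, 19.4 and 17.2 at high and 15.9, 16.0 and 14.5 at low altitude. The groups did not overlap and the fitted difference was −0.20 (SE 0.13, limma with Benjamini-Hochberg adjusted p = 0.692). MRPS35 and MRPS27, of the same class, had estimates of −0.096 and −0.037 and overlapping groups.

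MRPL52 and MRPS2 were the genes with every low altitude library above every high altitude library. MRPL52, found only in mitochondrial ribosomes, was at 17.7, 20.6 and 21.5 at high and 26.2, 25.8 and 24.6 at low altitude (0.35, SE 0.14, limma with Benjamini-Hochberg adjusted p = 0.496). MRPS2, the counterpart of bacterial S2, was at 5.21, 5.59 and 4.25 at high and 6.35, 6.38 and 5.84 at low altitude (0.26, SE 0.14, limma with Benjamini-Hochberg adjusted p = 0.606). The means of MRPL52 were 19.95 ± 2.01 and 25.6 ± 0.817, a ratio of 1.28, and those of MRPS2 were 5.02 ± 0.690 and 6.19 ± 0.303, a ratio of 1.23.

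**Figure D3:**
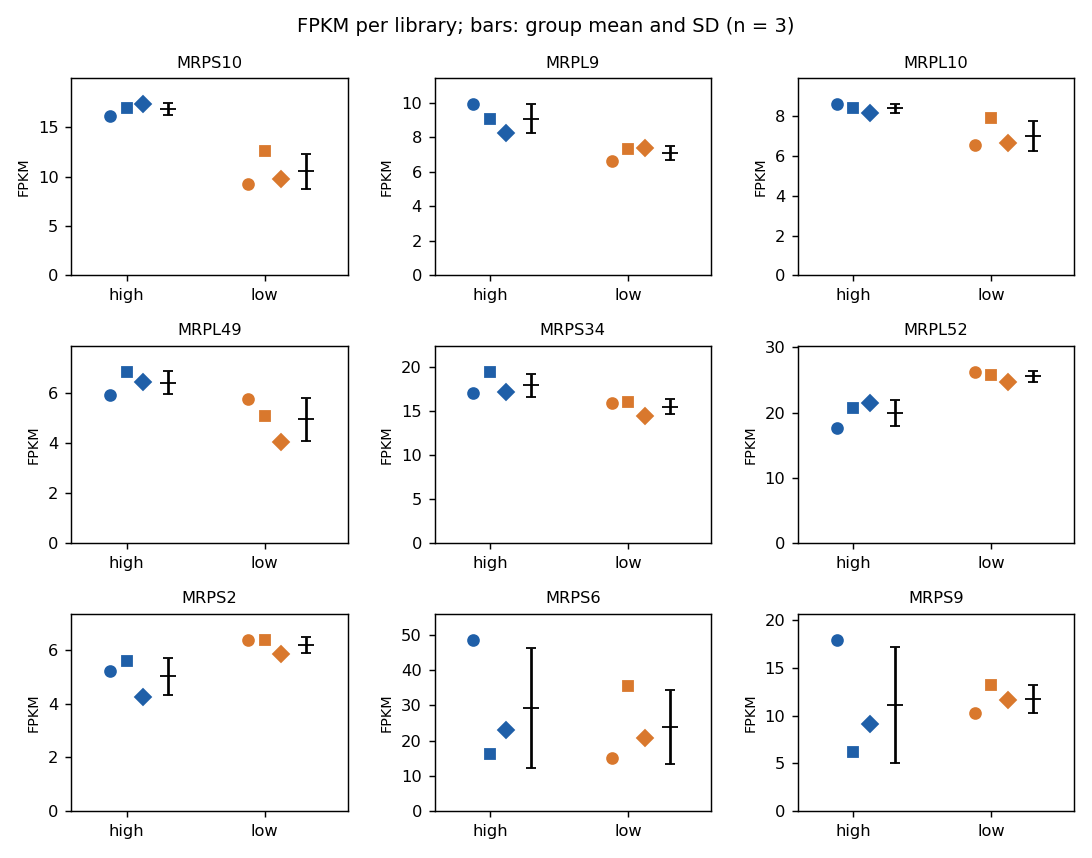
FPKM of 9 genes in the 3 high altitude (blue) and 3 low altitude (orange) libraries, with circles, squares and diamonds for libraries 1, 2 and 3 of a group and black bars for the group mean and SD. The first 7 panels are the genes whose groups do not overlap, from MRPS10 to MRPS2; MRPS6 and MRPS9 are the genes with the largest spread within groups, with high altitude library 1 at 48.7 and 17.97.

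The spread between animals differed from gene to gene. The highest library was less than 1.5 times the lowest in 21 of the 43 genes (48.8%, against 29.6% of all tested genes, a difference that was not tested), 1.5 to 2 times in 17 and at least 2 times in 5. MRPL46, a large subunit protein with no bacterial counterpart, had the narrowest spread, from 13.3 to 14.96 FPKM. MRPL22, whose bacterial counterpart lines the peptide exit tunnel, was at 24.3 to 28.7, with overlapping groups. MRPL45, which anchors the ribosome to the inner membrane, was at 28.0, 20.2 and 30.6 at high and 25.4, 28.3 and 25.2 at low altitude, means of 26.3 ± 5.40 and 26.3 ± 1.75.

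The 5 genes that varied at least 2-fold were MRPS6, MRPS9, MRPL47, MRPS31 and MRPL35. MRPS6 was at 48.7, 16.2 and 22.9 at high and 15.1, 35.5 and 20.7 at low altitude, a 3.21-fold range. MRPS9 was at 17.97, 6.205 and 9.16 at high and 10.3, 13.2 and 11.7 at low altitude, a 2.90-fold range. High altitude library 1 was the highest library in both, the library that also had the most slow fibre marker RNA, and the part of fibre type in these values was not tested. MRPL47 was at 7.37, 3.20 and 6.18 at high and 4.34, 6.02 and 3.69 at low altitude, where library 1 was again the highest. MRPS31 was at 3.75, 2.29 and 3.48 at high and 2.97, 4.75 and 2.98 at low altitude, with its extremes in libraries numbered 2 of either group. Without high altitude library 1 the estimate of MRPS6 moved from −0.22 to 0.21 and that of MRPL47 from −0.17 to 0.029.

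Among the 3 related MRPS18 proteins, which share a bacterial counterpart but take different places in the ribosome, A and B were in the table. MRPS18A carries a small subunit name but is part of the large subunit in known structures. It was at 16.3, 17.6 and 13.7 at high and 16.8, 22.9 and 19.9 at low altitude (0.30, SE 0.17, limma with Benjamini-Hochberg adjusted p = 0.630). MRPS18B, in the small subunit, was at 6.83, 4.03 and 6.18 at high and 5.76, 7.16 and 6.57 at low altitude (0.19, SE 0.19, limma with Benjamini-Hochberg adjusted p = 0.807). The groups overlapped in both genes. With MRPS18A counted in the large subunit, the medians were −0.030 for the large and 0.053 for the small subunit.

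The genes were also grouped by origin, with MRPS18A in the large subunit and both MRPS18 genes among those specific to mitochondria, where the unified names of ribosomal proteins place them. None of the classes had a gene past the threshold. The median estimate was −0.029 over 18 large subunit genes with bacterial counterparts and −0.030 over 12 specific to mitochondria. In the small subunit it was 0.12 over 6 genes with bacterial counterparts and 0.046 over 7 specific to mitochondria. The median level of the large subunit genes was 17.3 FPKM with bacterial counterparts and 11.96 without, and that of the small subunit genes was 12.5 and 13.7.

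The summed levels of the large and small subunit genes, taken by name, also overlapped between the groups. The table held 30 of 40 current MRPL symbols and 14 of 25 current MRPS symbols, and MRPS18A was summed with the small subunit. The sums therefore cover a part of each subunit and do not give the balance of the whole ribosome. The summed FPKM of the 29 large subunit genes was 509, 467 and 522 at high and 482, 552 and 466 at low altitude. For the 14 small subunit genes the sum was 259, 212 and 215 at high and 212, 264 and 224 at low altitude. The ratio of the sums was 1.97, 2.202 and 2.43 at high and 2.28, 2.09 and 2.09 at low altitude. Without MRPS6, the gene with the widest spread, it was 2.42, 2.38 and 2.72 and then 2.45, 2.41 and 2.30. On the log scale the mean of the small minus that of the large subunit was 0.11, −0.072 and −0.13 at high and −0.025, 0.071 and 0.060 at low altitude.

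The level of the whole family overlapped between the groups. The mean log2(FPKM + 1) of the 43 genes was 3.93, 3.76 and 3.89 at high and 3.78, 4.004 and 3.76 at low altitude. Low altitude library 2 was the highest library in 15 of the 43 genes (34.9%, against 19.7% of all tested genes) and the lowest in 1. The lowest value fell in high altitude library 2 in 12 genes (27.9%, against 18.3% of all tested genes) and in library 3 of the low altitude group in 11 (25.6%, against 14.4%). High altitude library 1, the lowest in 43.0% of all tested genes, was the lowest in 4 of these 43 (9.30%) and the highest in 8. These shares are descriptions of the libraries and were not tested.

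Genes that work with the mitochondrial ribosome did not pass the threshold either. Of the 5 ribosome proteins with other names, 3 were tested, with a median estimate of −0.0062. DAP3, a GTP-binding protein of the small subunit, was at 1.14, 1.203 and 1.54 at high and 1.09, 1.13 and 0.835 at low altitude, without overlap. CHCHD1 and PTCD3, also of the small subunit, had estimates of 0.14 and −0.0062 and overlapping groups. Of the 16 tested genes of ribosome assembly and ribosomal RNA modification 0 passed, and their median was 0.0072. MPV17L2, an inner membrane protein needed for assembly of the ribosome, was at 4.38, 7.70 and 5.60 at high and 2.25, 3.38 and 2.64 at low altitude, also without overlap (−0.86, SE 0.21, limma with Benjamini-Hochberg adjusted p = 0.282). The RNA helicase DDX28 and the ribosomal RNA methyltransferase TFB1M had estimates of 0.31 and 0.23, with overlapping groups.

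Among mitochondrial translation factors 0 of 13 passed, with 6 above and 7 below 0 and a median of −0.011. MTRF1L, a release factor that ends translation, was at 2.72, 2.83 and 2.39 at high and 3.82, 3.58 and 2.93 at low altitude, without overlap (0.28, limma, Benjamini-Hochberg adjusted p = 0.577). OXA1L, which inserts the new proteins into the inner membrane, was at 66.9, 68.2 and 54.8 at high and 55.8, 50.6 and 43.0 at low altitude, with overlapping groups (−0.34, limma, Benjamini-Hochberg adjusted p = 0.577). For GFM2, a translation factor that recycles ribosomes, the estimate was 0.25.

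Mitochondrial aminoacyl-tRNA synthetases, which charge the transfer RNAs for this ribosome, had estimates above 0 in 9 of 11 tested genes, with a median of 0.13 and 0 past the threshold. In 4 of the 11 every low altitude library was above every high altitude library, beside 11.3% of all tested genes. IARS2, for isoleucine, was at 9.86, 9.32 and 10.5 at high and 12.1, 12.7 and 11.1 at low altitude, and AARS2, for alanine, had an estimate of 0.23 (limma, Benjamini-Hochberg adjusted p of 0.606 and 0.643). Of 5 tested genes of mitochondrial transcription and replication and 7 regulators of mitochondrial biogenesis 0 passed. MYC, a factor that drives ribosome production in many cells, was at 2.70, 2.68 and 2.61 at high and 4.34, 5.93 and 5.17 at low altitude (0.74, limma, Benjamini-Hochberg adjusted p = 0.155). PPARGC1A and PPARGC1B, coactivators of mitochondrial genes, had estimates of 0.26 and −0.46 with overlapping groups.

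The RNAs of the mitochondrial genome that the ribosome translates, and those of nuclear respiratory chain subunits, had estimates mostly below 0. Proteins were not measured. Of all tested genes 42.3% were below 0. For the 13 genes of the mitochondrial genome the median was −0.29 and 100% were below 0, for 41 nuclear respiratory chain subunits it was −0.28 and 97.6% were below 0, and for the 43 mitochondrial ribosomal protein genes it was −0.0044 and 51.2% were below 0. Without high altitude library 1 the respiratory chain median was −0.16, with 36 of 41 below 0, and that of the mitochondrial genome was −0.29, with 13 of 13 below 0. No gene of these lists passed the threshold, and the differences between the lists were not tested. The mean log2(FPKM + 1) of the nuclear respiratory chain list was 7.42, 7.06 and 7.01 at high and 6.74, 7.19 and 6.70 at low altitude. Low altitude library 2 was the highest of its group in this list, as it was in the mitochondrial ribosome genes. For the mitochondrial genome it was 13.09, 13.21 and 13.12 at high and 12.95, 12.89 and 12.82 at low altitude, without overlap. Cytosolic ribosomal protein genes, many with close copies that make their values uncertain, had a median of 0.11 over 23 tested genes, 18 of them above 0 and 0 past the threshold, and a median of 0.016 with 13 above 0 without high altitude library 2.

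**Figure D4:**
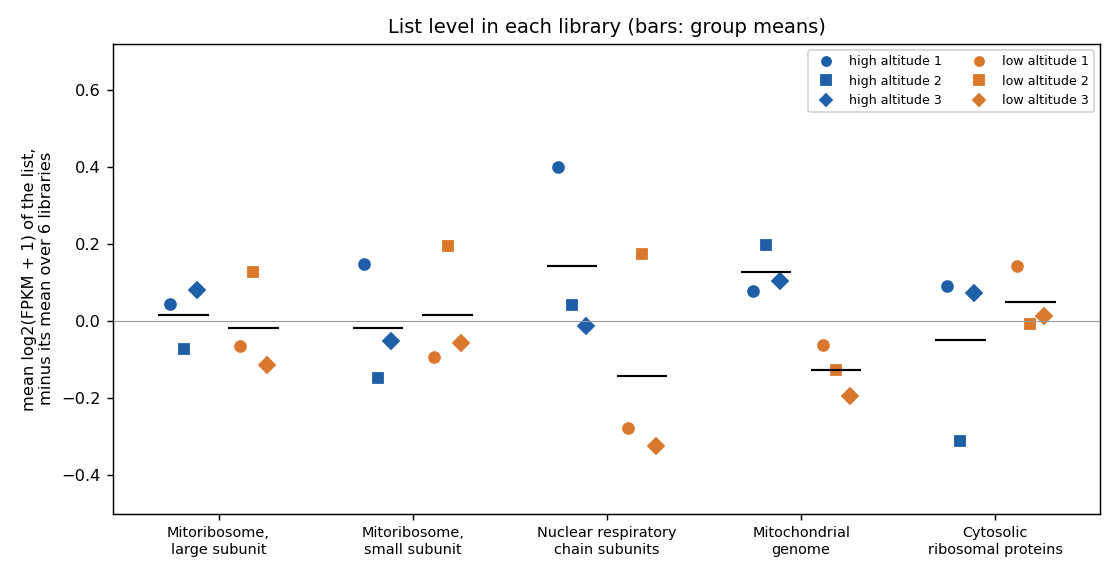
Mean log2(FPKM + 1) of 5 gene lists in each library, shown as the difference from the list's mean over the 6 libraries, with high altitude in blue, low altitude in orange and black bars for group means. The groups overlap for both subunits of the mitochondrial ribosome, for nuclear respiratory chain subunits and for cytosolic ribosomal proteins, and are separate for the 13 genes of the mitochondrial genome.

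Marker RNAs of fibre types and other cell types were also compared, although their levels do not by themselves give the makeup of the samples. Slow fibre markers had 4 of 4 tested estimates below 0 (median −0.73), with library means of 11.17, 9.40 and 10.69 at high and 9.52, 10.10 and 9.498 at low altitude, and 0 past the threshold. Without high altitude library 1 the median was −0.24. Fibroblast and matrix markers had 7 of 9 above 0 (median 0.28), but 3 of 9 (median −0.036) without high altitude library 1, so their direction rests on that library. Of the tested markers of adipocytes, endothelium, macrophages, lymphocytes, smooth muscle and pericytes, 0 passed. Among these, KDR of endothelium (−1.09) and CD3D of lymphocytes (−0.66) were lower in every low altitude library, as were 4.80% of all tested genes. Their adjusted p was 0.303 and 0.238 (limma, Benjamini-Hochberg). The endothelial markers TEK and PECAM1 had estimates of −0.15 and 0.21 and the lymphocyte marker CD2 −0.13, with overlapping groups. What part the mix of cells has in the values of the mitochondrial ribosome genes was not tested.

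In the RefSeq annotation of Sscrofa11.1, all 44 genes were found by symbol and 15 overlapped another annotated gene. These include MRPL9 with OAZ3, MRPL49 with SYVN1 and FAU, MRPS6 with SLC5A3, MRPL43 with TWNK and MRPS2 with an unnamed locus. The counting is not stated to use strand, so values of these genes are uncertain. MRPS10, MRPL10, MRPL52 and MRPS34 had no overlapping gene there. FAU, which encodes a cytosolic ribosomal protein, was at 2.56 to 4.33 FPKM and OAZ3 at 0 to 0.783, beside 4.05 to 6.85 for MRPL49 and 6.64 to 9.93 for MRPL9. The median of the tested cytosolic ribosomal protein genes was 315 FPKM, far above FAU. Whether the value of FAU is reliable was not tested.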

How the data were processed

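The authors deposited 1 table of FPKM values, 25322 genes in 6 libraries, whose column names match the sample titles. Per the labels' protocols, frozen muscle gave TRIzol-extracted RNA and strand-specific dUTP libraries. The submitters' processing notes name TopHat2 2.0.11 and Cufflinks 2.2.1 without their roles. Build and annotation: not given in the sources used here. No coordinates are printed. No sequences were used here.

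A table of gene IDs named 11804 of the 25322 genes and 6719 of the 10005 tested. The test was limma 3.58.1 in R 4.3.3 on log2(FPKM + 1), a pseudocount of 1, over genes reaching an FPKM of 1 in 3 or more libraries, with trend, two-sided, adjusted by Benjamini-Hochberg over every tested gene, threshold 0.05. An exact permutation test of 3 against 3 cannot go below 0.1, so none is given. Lists are described by counts and medians. The steps were tested on simulated data with known changes in genes at mean levels above an FPKM of 5. They recovered 33 of 66 changes of 1 log2 unit (50%), 44 of 52 of 2 units and 77 of 82 of 3 units. Of 159 calls 5 were false. A real 2-fold change can therefore be missed. Figures used matplotlib 3.10.9 in Python 3.11.15.

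The members and lists were chosen with earlier results of these data known. The naming rule took, per subunit, the 5 smallest unadjusted p in each direction and the 4 highest and 3 lowest levels, genes of the stalk, exit tunnel, membrane contact and MRPS18 family, genes under the filter, and up to 3 genes of each other list. MRPS9, MRPL46, MRPL43, FAU and OAZ3 were named after their values were seen. Alternatives changed the pseudocount (0.1, 0.5), the filter (none, or a mean FPKM of 5), the scaling (common total, median of ratios, quantile) or the fit (no trend, robust, array weights, replicate block), or left out 1 library. Added after the data were seen were a fit without genes at 0 in some library and 5 or more elsewhere, and MRPS18A counted with the large subunit.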

Additional observations from a re-analysis of the deposited data

How the results depend on the processing

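Under all 18 alternatives 0 mitochondrial ribosomal protein genes passed the threshold, and MRPS10 had the smallest p in each. Its adjusted p (limma, Benjamini-Hochberg) ran from 0.151 with array weights to 0.684 without low altitude library 3. The count over all genes, 23, was 6 with no filter, 38 with array weights, 9 when scaled by median of ratios and 10 when quantile normalized, and 4 to 21 when a library was left out. When a library was left out, the large subunit median, −0.048, ran from −0.11 to 0.018. The small subunit median, 0.089, ran from −0.035 to 0.21. Rescaling to a common total moved the median of all tested genes from 0.041 to 0.10 and that of the 43 genes from −0.0044 to 0.070, with 29 rather than 21 above 0; quantile normalization gave −0.0033 and −0.053, with 14 above 0. The pairing of samples by shared number was checked with the correlations of the libraries' deviations from the group means. These were −0.015, 0.095 and −0.14 for same-numbered libraries and −0.15 to 0.16 for libraries with different numbers. Same-numbered libraries were thus no more alike, but so few pairs cannot show whether they shared a batch or day. With the replicate block 19 genes changed, 0 of them in this family, and MRPS10 had an adjusted p of 0.378 (limma, Benjamini-Hochberg). The cause of these shifts was not tested.

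Of 30 named and tested members, 16 kept their sign in every alternative, and 14 small estimates, at most 0.22 in size, changed sign in at least 1. With rescaling to a common total MRPL19 was 0.0058, MRPL28 0.070 and MRPS27 0.035. MRPL22, MRPL45 and MRPS26 were −0.033, −0.027 and −0.0015 with median-of-ratios scaling and −0.053, −0.041 and −0.022 with quantile normalization. With array weights MRPL28 was 0.064 and MRPS6 0.020. Leaving out a library gave MRPL11 −0.26 to 0.0074, MRPL19 −0.11 to 0.024, MRPL22 −0.034 to 0.083, MRPL24 −0.30 to 0.056, MRPL28 −0.16 to 0.13, MRPL30 −0.15 to 0.0086, MRPL45 −0.15 to 0.14 and MRPL47 −0.47 to 0.029. It gave MRPS6 −0.56 to 0.21, MRPS18B −0.0041 to 0.32, MRPS26 −0.031 to 0.13, MRPS27 −0.13 to 0.020, MRPS31 −0.053 to 0.23 and MRPS35 −0.18 to 0.0029. FPKM holds no counts, so what depth limits cannot be given, and the intervals come from the spread between animals.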
